A study of Mus musculus with 9 samples.

Results

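Pigr, Rhox8, Gpnmb, Osbp2, Tfap2b and Prr18 are 6 genes whose transcripts were present on day 6 of reprogramming in mouse embryonic fibroblasts and much lower on days 9 and 12. They were chosen from the 12550 genes of the deposited table as non-histone genes with the steepest difference after day 6 in every arm, so their difference between days is how they were found and is described here without a test. All 6 reached the mean value of 20 over the libraries that was required for testing, as did 12541 genes in all.

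The cells were C57Bl/6cJ fibroblasts transfected with plasmids for Oct4, Sox2, Klf4 and c-Myc and kept in stem cell medium with LIF. All arms share these factors and differ in a pRetroSuper hairpin construct: against Hnrnpk, an RNA-binding protein, against lincRNA-p21, the long noncoding RNA of the Trp53cor1 gene, or against luciferase as the control. Each arm was sampled once on days 6, 9 and 12, which gives 9 libraries of total RNA, and every library is a merge of replicates. The replicates were merged before deposition, so the spread between them cannot be measured, and the reads behind a library are unknown.

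The values are a normalized signal. The column totals differ by 0.0252% and every column has the same highest value, 118715, so a value gives a gene's place among the genes of its library. In bulk RNA, fewer cells of a type and less RNA per cell cannot be told apart. For log2 differences 10 was added to each value first. This makes differences smaller where values are low, which touches Pigr and Rhox8 most. As a check of the labels, the signal of Hnrnpk on days 6, 9 and 12 was 11349, 17016 and 12793 with its own hairpin, against 31243, 26944 and 23376 in the control arm. Fitted over the days it was 0.501 times control (limma, adjusted p = 0.00824). Trp53cor1 had 90.5, 122 and 97 in the lincRNA-p21 arm and 286.5, 237 and 250 in the control arm. It was also low with the Hnrnpk hairpin, at 131, 137 and 119.5. Fitted over the days, the log2 difference of Trp53cor1 was -1.25 for lincRNA-p21 minus control, which missed the threshold (limma, adjusted p = 0.0603), and -0.94 for Hnrnpk minus control, which passed it (limma, adjusted p = 0.00752).

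The 6 genes belong to no single pathway. Pigr encodes the polymeric immunoglobulin receptor, which carries immunoglobulin A and M across secretory epithelia, and Rhox8 is a homeobox gene of the X-linked reproductive homeobox cluster, known for expression in Sertoli and granulosa cells of the gonads. Gpnmb encodes a transmembrane glycoprotein of pigment cells, osteoclasts and macrophages that is found in melanosomes and lysosomes and is a known target of the MITF family of transcription factors. Osbp2 encodes a member of the oxysterol-binding protein family, which binds sterols and other lipids at membrane contacts. Tfap2b encodes AP-2 beta, a transcription factor of the neural crest, kidney and limb. Prr18 encodes a proline-rich protein expressed in oligodendrocytes.

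All 6 are protein-coding genes in GENCODE M21 and lie apart on 5 chromosomes of the mouse genome build GRCm38. Pigr (chr1:130826684-130852249, plus strand) and Tfap2b (chr1:19208914-19238576, plus strand) share chromosome 1. Rhox8 is at chrX:37874778-37878944 on the minus strand and Gpnmb at chr6:49036546-49070929 on the plus strand. Osbp2, at chr11:3703731-3863903 on the minus strand, overlaps a small nucleolar RNA gene on the other strand. Prr18, at chr17:8337459-8344113 on the plus strand, overlaps a noncoding transcript gene on its own strand, so its signal may include reads of that transcript.

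The promoters of Pigr, Osbp2 and Gpnmb are shown because each holds a match to the E-box or the AP-2 motif. They are RefSeq promoters on GRCm38.p6, from 250 bases before to 50 bases after the transcript start, written 5′ to 3′ on the gene's strand with the match in capitals. For Osbp2, which has 3 RefSeq starts, the most upstream is shown.
Pigr (chr1:130826434-130826733, plus strand): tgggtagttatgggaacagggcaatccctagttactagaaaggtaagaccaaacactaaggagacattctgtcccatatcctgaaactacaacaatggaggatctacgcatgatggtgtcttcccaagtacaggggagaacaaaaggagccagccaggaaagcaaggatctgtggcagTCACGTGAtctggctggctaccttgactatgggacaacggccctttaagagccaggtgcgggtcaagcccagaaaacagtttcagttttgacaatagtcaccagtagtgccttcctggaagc
Osbp2 (chr11:3863854-3864153, minus strand): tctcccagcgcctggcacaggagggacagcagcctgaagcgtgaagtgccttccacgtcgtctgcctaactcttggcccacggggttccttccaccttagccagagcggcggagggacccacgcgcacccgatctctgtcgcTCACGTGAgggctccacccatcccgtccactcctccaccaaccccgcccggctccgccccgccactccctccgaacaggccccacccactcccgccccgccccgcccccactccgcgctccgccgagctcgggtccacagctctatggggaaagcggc
Gpnmb (chr6:49036268-49036567, plus strand): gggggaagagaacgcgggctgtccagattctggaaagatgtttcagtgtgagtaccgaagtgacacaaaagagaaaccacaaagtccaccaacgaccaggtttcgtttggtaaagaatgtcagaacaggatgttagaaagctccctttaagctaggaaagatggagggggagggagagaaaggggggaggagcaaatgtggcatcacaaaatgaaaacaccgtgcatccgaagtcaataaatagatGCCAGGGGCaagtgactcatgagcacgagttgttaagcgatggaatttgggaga
The capitals in Pigr and Osbp2 mark TCACGTGA, a palindrome around the E-box CACGTG that factors of the basic helix-loop-helix zipper class bind, among them c-Myc, USF and the MITF family. In the human PIGR promoter an E-box bound by USF is known. The match begins at position -72 in Pigr and -108 in Osbp2, counted with -1 as the base before the start. CACGTG stands in 7.15% of the 32851 RefSeq promoters of this length and TCACGTGA in 0.974%, and the longer form was searched only after the sequences had been seen. Among the 5 genes with a promoter in the table, all but Rhox8, 2 hold it. The capitals in Gpnmb mark an AP-2 match, GCCNNNGGC, at position -4, a motif held by 16.6% of promoters and also, at -98, by an inner Osbp2 promoter. An inverted CCAAT at position -30 is in the upstream Prr18 promoter and in 37.4% of promoters. Searched on both strands, TATAAA, the NF-kB site and the octamer ATGCAAAT were in none of the member promoters, and in 13.6%, 0.155% and 1.74% of all promoters. The Pigr promoter holds 4 CpG, that of Gpnmb 9 and that of Tfap2b 8, against a median of 7 over all promoters. The 2 Prr18 promoters hold 6 and 24 and the 3 Osbp2 promoters 27, 32 and 2. These matches are letters in a window and say nothing of binding in these cells.

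Pigr and Rhox8 were near the bottom of the scale by day 9. Pigr had a signal of 102.5, 8 and 5.5 on days 6, 9 and 12 in the Hnrnpk arm, 113, 1 and 3 in the lincRNA-p21 arm and 247.5, 4 and 3.5 in the control arm. Rhox8 had 112, 9 and 10.5 in the Hnrnpk arm, 124, 2.5 and 3.5 in the lincRNA-p21 arm and 298.5, 6 and 6 in the control arm. In every arm the day 6 value stood far above both later ones, and no later value was above 10.5. The day 9 value was 7.80%, 0.885% and 1.62% of the day 6 value for Pigr in the Hnrnpk, lincRNA-p21 and control arms. For Rhox8 it was 8.04%, 2.02% and 2.01% in the same arms. The log2 difference, day 9 minus day 6, averaged -3.44 ± 0.78 for Pigr and -3.46 ± 0.79 for Rhox8 (SD over the 3 arms, which are not replicates of each other). Day 12 minus day 9 averaged -0.01 ± 0.23 for Pigr and 0.07 ± 0.06 for Rhox8, so there was little difference between the later days.

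Gpnmb had most of its difference by day 9 and a smaller one after it. Its signal was 1434.5, 195 and 146 in the Hnrnpk arm, 893, 124 and 70.5 in the lincRNA-p21 arm and 257.5, 44 and 40 in the control arm. Day 6 was highest in each arm, and the Hnrnpk arm on day 12 still lay above the control arm on day 9. Day 9 minus day 6 averaged -2.63 ± 0.28 and day 12 minus day 9 averaged -0.41 ± 0.31. Day 9 kept 13.6%, 13.9% and 17.1% of the day 6 signal in the Hnrnpk, lincRNA-p21 and control arms.

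Osbp2, Tfap2b and Prr18 went on to lower values between days 9 and 12. Osbp2 had 1077.5, 174 and 75 in the Hnrnpk arm, 1155, 213.5 and 107 in the lincRNA-p21 arm and 438.5, 124.5 and 80 in the control arm. The knockdown arms started far above the control on day 6 and the 3 arms ended close together on day 12. Tfap2b had 430.5, 94.5 and 50 in the Hnrnpk arm, 493, 141.5 and 47.5 in the lincRNA-p21 arm and 510, 74 and 48 in the control arm. Its arms lay close together on days 6 and 12 and spread most on day 9. Prr18 had 237.5, 72 and 18 in the Hnrnpk arm, 302, 103 and 30 in the lincRNA-p21 arm and 394, 127 and 49 in the control arm. The order of the arms was the same on all 3 days for Prr18, with the Hnrnpk arm lowest. Day 9 minus day 6 averaged -2.23 ± 0.43 for Osbp2, -2.15 ± 0.45 for Tfap2b and -1.54 ± 0.07 for Prr18, and day 12 minus day 9 a further -0.88 ± 0.27, -0.91 ± 0.44 and -1.42 ± 0.18.

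**Figure D1:**
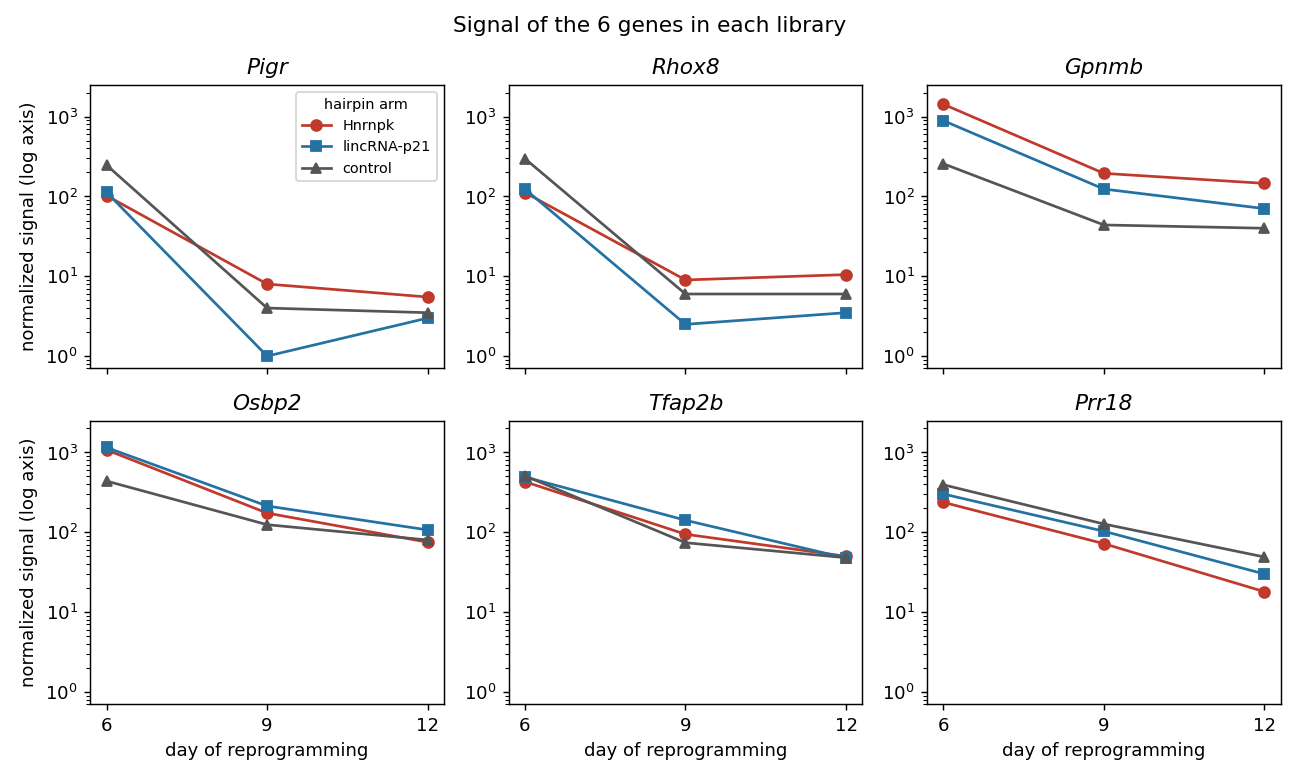
Normalized signal (log axis) of each of the 6 genes on days 6, 9 and 12, with 1 point per library and 1 line per hairpin arm. Pigr and Rhox8 are between 1 and 10.5 from day 9 on, whereas Prr18 is between 72 and 127 on day 9 and between 18 and 49 on day 12.

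A loss complete by day 9 therefore described Pigr and Rhox8, and less so Gpnmb, better than the others. Of the mean log2 difference between days 12 and 6, day 9 had reached 99.7% for Pigr, 102% for Rhox8 and 86.4% for Gpnmb. The share was 71.8% for Osbp2, 70.2% for Tfap2b and 52.0% for Prr18, against a median of 77.3% over the other 415 genes that were at least 2-fold lower on day 12 in all arms. For Pigr and Rhox8 the share rests on later values of 10.5 or less, where the added 10 shrinks any difference between days 9 and 12. The ranking that returns exactly these 6 genes uses day 12: among 11731 named protein-coding genes without histones they are the first 6 by the mean of day 12 minus day 6. Those means run between -3.45 for Pigr and -2.96 for Prr18, and the next genes were Lipf (-2.94), Cass4 (-2.78) and Fgf18 (-2.67). Ranked by the arm with the smallest difference, day 9 minus day 6, over 12511 non-histone genes of any type, Rhox8 was 5th, Pigr 6th, Gpnmb 9th, Osbp2 28th, Tfap2b 29th and Prr18 49th. In that ranking Prr18 was at -1.47, beside Cobll1 and Osr1 (-1.46 each). For all genes tested, 1.75% were at least 2-fold lower on day 9 than on day 6 in all 3 arms, and 3.36% were on day 12, and all 6 members are among both by the way they were chosen.

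Gpnmb was the gene of the 6 with the largest arm difference, and it was higher with either knockdown on every day. On days 6, 9 and 12 its signal in the Hnrnpk arm was 5.57, 4.43 and 3.65 times that in the control arm. Fitted over the days, the log2 difference was 2.00 with an SE of 0.19, or 4.0-fold, and it passed the test (limma, adjusted p = 0.00272; higher on 3 of 3 days). In the lincRNA-p21 arm the ratio over control was 3.47, 2.82 and 1.76. That log2 difference, 1.25 with an SE of 0.19, missed the threshold (limma, adjusted p = 0.0728). The direct comparison of the knockdown arms, lincRNA-p21 minus Hnrnpk, was -0.75 with an SE of 0.19 and a 95% interval of -1.19 to -0.30, and it missed the threshold too (limma, adjusted p = 0.0797). In both knockdown arms the ratio over control was largest on day 6. Without the day 9 libraries the Hnrnpk difference of Gpnmb was 2.04 and lost its call (limma, adjusted p = 0.0529).

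Prr18 was lower in the Hnrnpk arm. Its signal there was 0.603, 0.567 and 0.367 times that of the control arm on days 6, 9 and 12. The fitted log2 difference of -0.84, with an SE of 0.15, passed the test (limma, adjusted p = 0.00969; lower on 3 of 3 days). In the lincRNA-p21 arm the ratios were 0.766, 0.811 and 0.612, and the difference of -0.40 did not pass (limma, adjusted p = 0.283). The interval of lincRNA-p21 minus Hnrnpk was 0.10 to 0.77 before adjustment (limma, adjusted p = 0.149). The Hnrnpk call of Prr18 was lost without the day 9 libraries (limma, adjusted p = 0.141), without those of day 12 (adjusted p = 0.0688) and when only those 2 arms were fitted (adjusted p = 0.0701).

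Osbp2 had more signal in both knockdown arms on day 6, at 2.46 times control with the Hnrnpk hairpin and 2.63 times control with the lincRNA-p21 hairpin. By day 12 the ratios were 0.938 and 1.34. Over the days the log2 difference, with an SE of 0.23, was 0.55 for Hnrnpk minus control (limma, adjusted p = 0.146) and 0.83 for lincRNA-p21 minus control (limma, adjusted p = 0.168), and neither passed. For lincRNA-p21 minus Hnrnpk the Osbp2 difference was 0.28 with a 95% interval of -0.23 to 0.80 (limma, adjusted p = 0.566).

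Pigr and Rhox8 had the opposite pattern on day 6. Pigr stood at 0.414 times control with the Hnrnpk hairpin and 0.457 times control with the lincRNA-p21 hairpin, and Rhox8 at 0.375 and 0.415 times control. On days 9 and 12 both genes were above control in the Hnrnpk arm and below it in the lincRNA-p21 arm, at values of 10.5 or less, where 1 step of the table is 0.5. Fitted over the days, Hnrnpk minus control was -0.21 for Pigr (limma, adjusted p = 0.716) and -0.24 for Rhox8 (limma, adjusted p = 0.679). For lincRNA-p21 minus control the differences were -0.49 (limma, adjusted p = 0.550) and -0.60 (limma, adjusted p = 0.477). The fit assumes 1 difference for all days, which these values do not follow. Tfap2b differed least: 0.04 for Hnrnpk minus control, with a 95% interval of -0.40 to 0.48 (limma, adjusted p = 0.907), and 0.26 for lincRNA-p21 minus control (limma, adjusted p = 0.576).

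**Figure D2:**
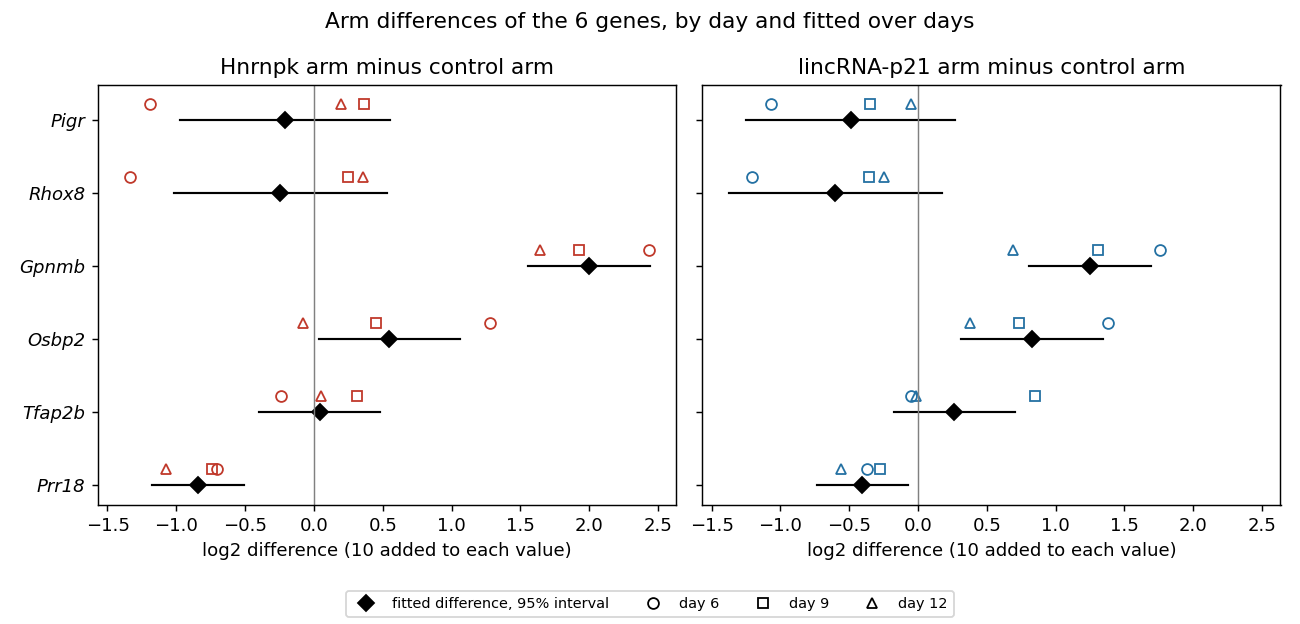
Log2 difference of each knockdown arm from the control arm (10 added to each value) for the 6 genes, on each day (open symbols) and fitted over the days with its 95% interval before adjustment (black). Gpnmb is right of 0 on every day in both panels and Prr18 left of 0, while for Pigr and Rhox8 the day 6 point lies far left of the later days.

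Counted together, 2 of the 6 genes passed the test for Hnrnpk minus control, 1 higher (Gpnmb) and 1 lower (Prr18), against 12.5% of all genes tested (700 higher and 870 lower). For lincRNA-p21 minus control 0 of 6 passed, against 0.00797% of all genes in limma, which is 1 gene, with 1730 genes (13.8%) at an unadjusted p under 0.05. Of the members, Gpnmb, Osbp2 and Prr18 were among those, with unadjusted p of 0.000157, 0.00563 and 0.0232 in the model fitted over all genes. For lincRNA-p21 minus Hnrnpk 0 of 6 passed in limma, against 3.26% of all genes, and Gpnmb and Prr18 had an unadjusted p under 0.05 (0.00436 and 0.0162 in limma), as did 19.0% of all genes. The median difference of the 6 genes was -0.08 for Hnrnpk minus control and -0.07 for lincRNA-p21 minus control, against 0.00 and 0.02 over all genes tested. The comparisons with control share its libraries.

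Pigr and Rhox8 kept nearly the same profile. The correlation of the log2 values of Pigr and Rhox8 was 0.998 over the 9 libraries and 0.975 after the mean of each day was taken out (Pearson's r, a description, since the libraries share days and arms). With the day means out, Osbp2 ran against Pigr and Rhox8 (r of -0.85 and -0.90) and with Gpnmb (0.71). On day 6 Pigr, Rhox8 and Osbp2 differed from control by -1.19, -1.34 and 1.28 (log2) with the Hnrnpk hairpin. With the lincRNA-p21 hairpin these were -1.07, -1.20 and 1.38. Later differences from control were smaller, at most 0.73 in size. The day-centred r values among Pigr, Rhox8 and Osbp2 thus rest largely on day 6. They were not recomputed without the day 6 control library. Gpnmb ran against Prr18 (-0.91). The genes thus shared a highest value on day 6 in every arm but not the order of the arms.

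By the same measure over the 9 libraries, and leaving the 6 genes themselves aside, the genes most like Pigr were Efna2 (0.995), Sap130 and Crebbp, and those most like Rhox8 were Atf7ip (0.995), Efna2 and Crebbp. Efna2, an ephrin ligand, had 96, 25 and 18.5 in the Hnrnpk arm, 108.5, 11.5 and 11.5 in the lincRNA-p21 arm and 164, 13 and 13 in the control arm, the same order of arms on day 6 as Pigr. Crebbp, a histone acetyltransferase, had 4455, 2190.5 and 2162 in the Hnrnpk arm, 4296, 2200.5 and 2033 in the lincRNA-p21 arm and 6001.5, 2053 and 2096 in the control arm. For Gpnmb the most similar were Cdh2 (0.993), Mmd and Cap2. Cdh2, which encodes N-cadherin, had 4631.5, 1162.5 and 1081.5 in the Hnrnpk arm, 3164, 940 and 641 in the lincRNA-p21 arm and 1863, 550.5 and 440.5 in the control arm, so its arms kept the order of Gpnmb on every day. Osbp2 was most like Sgsm3 (0.993), Mgrn1 and Fam20a, Tfap2b most like Arhgap42 (0.996), Ankrd52 and Nckap5l, and Prr18 most like Pak3 (0.985), Dmd, the dystrophin gene, and Prrt4. Zfp335 (0.996), Nup214, Fhl3 and Zfp385a led the genes most like the mean profile of the 6.

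The relatives of the genes had smaller or opposite differences between the days. The members were chosen as extremes, so nearly any other gene would fall less. Of 31 other Rhox genes, 0 have a row in the table used here, so Rhox8 stands alone for its cluster. All 11 other genes of the oxysterol-binding family were tested, with a median of 0.11 for day 9 minus day 6. Of them 0 were at least 2-fold lower on day 9 in all arms, near the 1.75% of all genes tested. Osbpl6 was the lowest of them at -0.76 ± 0.03, and it was lower in the Hnrnpk arm than in the control arm (-0.44; limma, adjusted p = 0.0433). Osbp itself, the closest relative of Osbp2, was at 0.00 ± 0.09. Among the AP-2 factors, Tfap2a was at 0.27 ± 0.47 and Tfap2c, the AP-2 gamma of trophoblast and germ cells, at 0.99 ± 0.82. Of the 6 AP-2 factors and partners tested, 1 was at least 2-fold lower on day 9 in all arms, against 1.75% of all genes. It was Kctd1, a repressor of AP-2 activity, at -1.18 ± 0.12. None of the 6 passed the test for Hnrnpk minus control, the nearest being Tfap2c at 0.82 (limma, adjusted p = 0.111).

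The pigment and lysosome genes give the setting of Gpnmb. Of 19 MITF family and pigment genes 9 were tested, and for day 9 minus day 6 their median was -0.11. Tyrp1, a melanin enzyme, was at -1.29 ± 0.19 and Ctsk, the osteoclast protease cathepsin K, at -1.21 ± 0.27. Rab27a went the other way, at 1.15 ± 0.21, as did Cd63 at 0.42 ± 0.31. Of the 9 only Tyrp1 was at least 2-fold lower in all arms (1 of 9, against 1.75% of all genes). Ctsk and Tyrp1 were higher in the Hnrnpk arm than in the control arm, by 1.04 (limma, adjusted p = 0.00783) and 0.73 (limma, adjusted p = 0.0451). That is 2 of 9 against 12.5% of all genes called in either direction, and no member of the list passed as lower. Ctsk had 721, 246.5 and 182 in the Hnrnpk arm, 672, 296 and 145 in the lincRNA-p21 arm and 267.5, 131 and 96 in the control arm. Mitf itself was at -0.33 ± 0.27 for day 9 minus day 6 and at -0.07 for Hnrnpk minus control (limma, adjusted p = 0.847). Of 24 lysosome genes tested, 1 was at least 2-fold lower on day 9 in all arms, near the 1.75% of all genes. It was the channel gene Mcoln1 at -1.29 ± 0.10. In the Hnrnpk arm Ctsl and Gla, which encode lysosomal hydrolases, passed the test as higher and Glb1 as lower, and the median of the list was 0.24 against 0.00 over all genes. Day 6 sums of the lysosome genes were 144855, 124046 and 86246.5 in the Hnrnpk, lincRNA-p21 and control arms, the order of Gpnmb. On day 9 the sums were 98026, 96608.5 and 96976.5, and on day 12 they were 111712, 104332 and 107692. On both later days the lincRNA-p21 arm was lowest, unlike for Gpnmb. The part of these sums in the Gpnmb result was not tested.

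Genes that act with Pigr were not lower as a group. Of 14 genes for immunoglobulin transport and its regulation 11 were tested, with a median of 0.28 for day 9 minus day 6. Of these, 0 were at least 2-fold lower on day 9 in all arms, near the 1.75% of all genes tested. Rab25, a small GTPase of apical recycling, was higher by 2.71 ± 0.21, and Rela, a subunit of NF-kB, was at -0.69 ± 0.07. Fcgrt, the neonatal Fc receptor that also carries immunoglobulin, was at 1.06 ± 0.33. Its level was lower in the Hnrnpk arm than in the control arm, by 1.06 (limma, adjusted p = 0.00848). Irf1, a known activator of PIGR in human cells, was at 1.0 ± 0.50.

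Neighbouring genes differed less between the days. The members were chosen for a steep difference after day 6, so nearly any other gene would differ less. The nearest measured genes to Pigr, AA986860 and Mapkapk2, were at -0.29 and 0.04 for day 9 minus day 6, and those to Rhox8, Rnf113a1 and Zbtb33, at -0.10 and 0.11. Morc2a and Dusp18 beside Osbp2 were at -0.30 each. Malsu1, which begins 2.87 kb after Gpnmb, was at 0.10, and Abp1, which encodes diamine oxidase and lies on its other side, was higher by 1.93. Sft2d1 beside Prr18 was at 0.05. Crispld1, over 1 Mb from Tfap2b, was at -0.90 and Mcm3 on the other side was at 0.29.

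**Figure D3:**
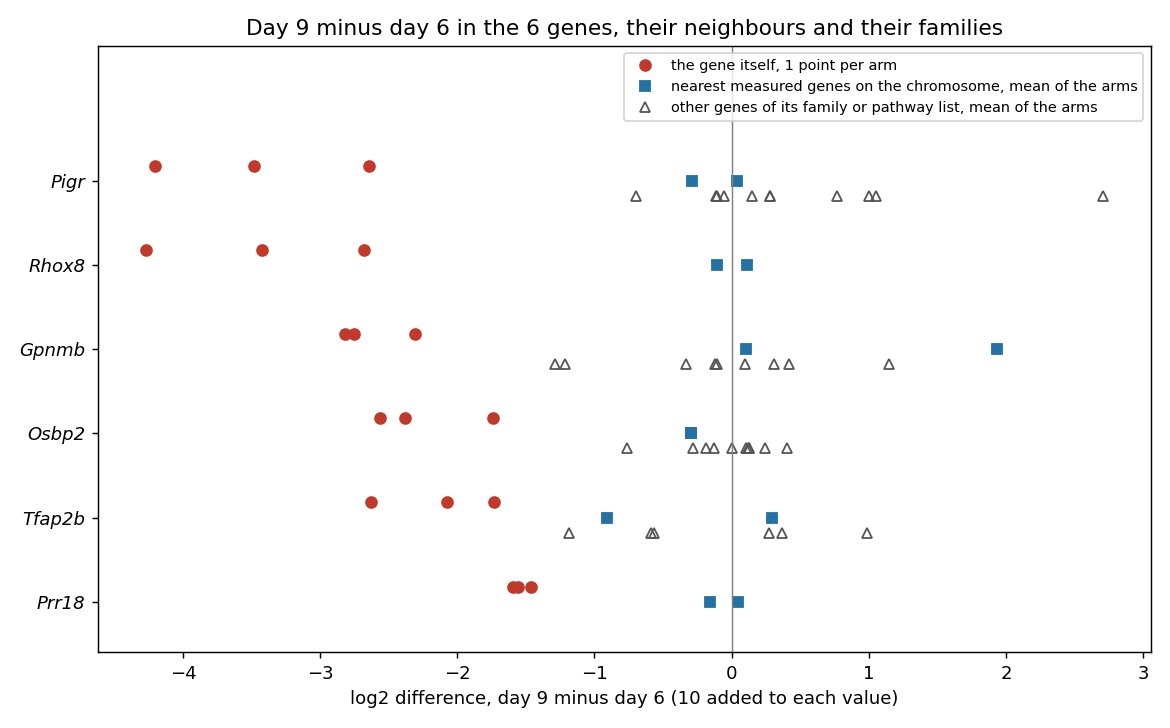
Log2 difference, day 9 minus day 6 (10 added to each value), for the 6 genes in each arm (circles), the nearest measured genes on the chromosome (squares) and the other tested genes of the family or pathway list (triangles, with no list for Prr18 and no tested relative for Rhox8). The circles lie between -4.27 and -1.47, left of the squares and triangles of their own row. The 6 genes were chosen for a steep difference after day 6, so this placing follows from the choice.

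Markers of the cell types in which these genes are best known were few in the table. Of 15 macrophage markers 2 were tested, Cd68 and Itgam, and the other 13 have no row in the table used here, Csf1r, Ptprc and Adgre1 among them. Their summed signal was 2354 to 4326.5 in the Hnrnpk arm, 2069 to 2511 in the lincRNA-p21 arm and 1927 to 2775.5 in the control arm. On day 6 Cd68 had 780, 171 and 120.5 in the Hnrnpk, lincRNA-p21 and control arms, the order of Gpnmb. On day 9 it had 314.5, 180 and 238.5, with the lincRNA-p21 arm lowest, and on day 12 it had 556, 419.5 and 380. The Cd68 difference for Hnrnpk minus control, 1.17, missed the threshold (limma, adjusted p = 0.0778). Itgam had 1574, 2025 and 1806.5 in the same arms on day 6, with the Hnrnpk arm lowest. On days 9 and 12 its Hnrnpk arm was highest, at 2578 and 3770.5. Of 10 melanocyte markers 3 were tested (Mitf, Tyr and Tyrp1), with sums of 431 to 710.5, 418.5 to 643.5 and 345.5 to 516.5 in the Hnrnpk, lincRNA-p21 and control arms. Their part in the Gpnmb result was not tested.

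For Prr18, 5 of 13 oligodendrocyte and Schwann markers were tested, and Mbp, the myelin protein gene, was higher on day 9 by 1.06 ± 0.05 while Prr18 was lower. For Rhox8, 3 of 10 Sertoli and gonad markers were tested, with a median of 0.01: Sox9 was at -1.42 ± 0.48, Inhbb at 0.01 ± 0.43 and Clu at 0.53 ± 0.54. For Tfap2b, 8 of 10 neural crest genes were tested with a median of -0.11, and Snai2 was at -1.15 ± 0.34. For Pigr, 7 of 10 secretory epithelium markers were tested with a median of 1.40, and Epcam was higher by 2.93 ± 0.04, so Pigr was lower on day 9 while Epcam was higher. The fibroblast markers, 15 of 15 tested, had a median of -0.29 and the 12 pluripotency genes a median of 1.79. Of the fibroblast markers 0 were at least 2-fold lower on day 9 in all arms, near the 1.75% of all genes. For Hnrnpk minus control, 5.58% of all genes were called higher and 6.94% lower. Called higher were 3 of the 7 epithelial markers (Cdh1, Ltf and Epcam), 6 of the 12 pluripotency genes and 1 of the 15 fibroblast markers (S100a4). Myrf among the oligodendrocyte markers and Inhbb among the gonad markers were called higher as well, and Sox2 among the pluripotency genes was called lower. Sox2 and Pou5f1 (Oct4) of that list were also transfected factors. The part of plasmid transcripts in their signal was not tested.

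Some histone transcripts, which mostly lack a poly(A) tail, were lower on day 9 too. Of 20 replication-dependent histone genes 10 were at least 2-fold lower on day 9 in all arms, against 1.75% of all genes. The median of the 20 was -1.39. Their summed signal on days 6, 9 and 12 was 8094, 3625.5 and 4045 in the Hnrnpk arm, 9762.5, 3852.5 and 4033 in the lincRNA-p21 arm and 11626, 3835.5 and 4371.5 in the control arm. On day 6 Hist1h2ap had 2661, 3696 and 7543 in the Hnrnpk, lincRNA-p21 and control arms, the same order as Pigr and Rhox8. The order of the sums rests on that gene: without it they were 5433, 6066.5 and 4083 on day 6, with the control arm lowest. Hist1h2aj (383, 528 and 830.5), Hist1h2ah, Hist1h2ad and Hist1h2ao had the order of Hist1h2ap on day 6 too. In all the other genes of the list the control arm was lowest on day 6. Of 6 other RNAs without a poly(A) tail 2 were tested, and for day 9 minus day 6 Rpph1 was at 1.76 ± 0.86 and Rn7sk at -0.52 ± 0.90. Whether these differences have a part in the values of Pigr and Rhox8 was not tested.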

How the data were processed

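The 6 genes and the gene lists were chosen with earlier results of these data known. The authors deposited 1 table of normalized signal, with 1 column for each merged library, and the depth of the libraries is unknown. RSEM 1.2.12, Bowtie 1.0.1 and the build mm10 are listed, per the submitters' processing notes, without their roles. How the scaling was done was not given in the sources used here. Values of the deposited signal move in steps of 0.5, so no count test was used. Of the gene identifiers 12470 were found in GENCODE M21, which gave coordinates and types, and all 9 value columns match a library.

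Values were used as log2(value + 10) for genes with a mean of at least 20. Arms were compared with limma 3.58.1 in R 4.3.3, with arm and day as additive terms over all 9 libraries (4 residual degrees of freedom, 4.46 prior, 8.46 in total), moderated with an intensity trend. P-values are two-sided and adjusted by Benjamini-Hochberg over all genes tested at 0.05. The spread is how an arm difference varies between days, since each arm has 1 library a day. Days were compared without a test, with 2-fold meaning a log2 difference of 1. Alternatives were 1 or 50 added before the log2, other filters, median centring, no intensity trend, only the 2 arms compared, and each library or day left out.

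Named genes are the 6 members, the hairpin targets, the 3 genes most correlated with each member (and those most like their mean), the genes next in the rankings, relatives of the members and up to 4 members of each list by their difference between days 9 and 6. Called genes of a list, Mitf, Rela and the histone sum without Hist1h2ap were added after their values were seen. So were Pou5f1 and the day 6 order of the other histone genes. Promoter sequences are from RefSeq, GRCm38.p6. The result of 1 lysosome gene is left out of the text.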

Additional observations from a re-analysis of the deposited data

Results flagged for a closer look

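For 3 of the genes the Hnrnpk minus control difference had 1 sign on day 6 and the other sign on both later days. The mean log2 difference of days 9 and 12 less that of day 6 was 1.48 for Pigr and 1.64 for Rhox8. Pigr was at -1.19 on day 6, 0.36 on day 9 and 0.20 on day 12, and Rhox8 at -1.34, 0.25 and 0.36. The later values rest on a signal of 10.5 or less. For Tfap2b the same quantity was 0.42, with -0.24 on day 6, 0.32 on day 9 and 0.05 on day 12. With 1 library per arm and day the difference between days was not tested.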

How the results depend on the processing

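The call of Gpnmb as higher in the Hnrnpk arm was kept in 18 of 19 alternatives, and that of Prr18 as lower in 16 of 19, with differences of 1.59 to 2.23 and -0.98 to -0.57. Counts of called genes moved far more. For Hnrnpk minus control, 1570 genes became 330 with only the 2 arms fitted and 25 to 3050 when 1 library or day was left out: 25 without day 9, 367 without day 12, 3050 without day 6, 557 without the day 9 control and 597 without the day 9 Hnrnpk library. For lincRNA-p21 minus control, 1 gene became 0 with 50 added, 13 without the intensity trend, 0 with only the 2 arms and 0 to 199 with a library or day left out, 92 without the day 6 control. For lincRNA-p21 minus Hnrnpk, 409 genes became 646 with only the 2 arms and 0 to 958 with a library or day left out. Gpnmb in the lincRNA-p21 arm passed without the day 6 control (limma, adjusted p = 0.0481) or the day 6 Hnrnpk library (0.0465), Osbp2 in the Hnrnpk arm without the day 12 control (0.0495), and Gpnmb between the knockdown arms in 3 of 19 alternatives. Differences that were not called changed sign: Pigr for Hnrnpk minus control to 0.0383 with 1 added and over -0.50 to 0.18 with libraries or days left out, Rhox8 over -0.55 to 0.18, Tfap2b over -0.17 to 0.19, and Tfap2b over -0.0302 to 0.4192 for lincRNA-p21 minus control and -0.0034 to 0.3636 between the knockdown arms. The cause was not tested. For Pigr and Rhox8, day 9 minus day 6 was -5.00 and -4.69 with 1 added, and -1.84 and -1.94 with 50 added, because their later values are close to 0. They could not be tested at a mean of at least 100 or without day 6, which leaves them 17 alternatives. The model already pairs the arms by day, and no replicate numbers are shared that could add a block.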
